A study of Homo sapiens with 4 samples.

Results

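The genes of the phosphatidylinositol 4-kinases (PI4-kinases) and of the complex that holds one of them, PI4KA, at the plasma membrane were followed in leukemia cells given the small molecule SF1-8. There were 10 genes, FAM126A, FAM126B, PI4KA, TTC7A, TTC7B, EFR3A, EFR3B, PI4KB, PI4K2A and PI4K2B, among the 62778 entries of the deposited table that carry a gene name. FAM126A was selected on its rise between DMSO and SF1-8 in these same libraries, and the other 9 were taken because they encode its partners, their paralogs or the remaining PI4-kinases. Each gene was read from the entry that names it and has the highest mean count, and 2 of the 10 sit in an entry with other genes, PI4K2A with HOGA1 and AL355315 and PI4K2B with SEPSECS-AS1.

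RNA-seq was done on K562, an erythroleukemia cell line, made to overexpress the U2AF1_S34F form of the splicing factor U2AF1, and control and treated cells shared that genotype. The control group, DMSO, holds 2 libraries of cells given the solvent, and the SF1-8 group holds 2 libraries of cells given 30 uM SF1-8 for 48 h. SF1-8 was made as an inhibitor of the U2AF homology motif domain, through which U2AF1 binds its partner proteins, and the comparison asked how it affected RNA levels. The labels do not say whether the overexpressing line is 1 clone, or that the 2 libraries of a group came from separate cultures, so the p-values below, from a count model that shares its estimate of variability over entries, hold for these samples only, and the spread between them may be technical.

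PI4-kinases add a phosphate to phosphatidylinositol and so make PI4P, a lipid that marks the Golgi and the plasma membrane and is the precursor of further signaling lipids. At the plasma membrane the kinase PI4KA works in a complex, in which EFR3 proteins anchor it to the lipid bilayer, TTC7 proteins act as the scaffold, and a FAM126 protein (hyccin) binds TTC7 and stabilizes the assembly. Loss of FAM126A causes hypomyelination with congenital cataract, and loss of TTC7A causes intestinal atresia with immunodeficiency.

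Total counts were between 45522905 in DMSO 1 and 67554610 in SF1-8 1, and the FPKM used here for levels is scaled by gene length and library depth. The 9 markers of K562, in 7 entries, summed to 253.4 to 278.1 FPKM per library, and GATA1, the erythroid transcription factor, stood between 75.9 and 79.1 FPKM. The 7 markers of other blood cells or vessels summed to 1.49 to 1.82 FPKM, with the myeloid gene MPO listed at 0 in all 4 libraries and the endothelial gene PECAM1 at 0.960 to 1.17 FPKM. CD3E, a T cell gene, was at 0.271 and 0.116 FPKM in DMSO and at 0.0338 FPKM in SF1-8 1, and is listed at 0 in SF1-8 2. U2AF1 itself stood at 11.42 and 11.51 FPKM in DMSO and at 11.86 and 12.02 FPKM in SF1-8, in an entry that does not separate the mutant from the endogenous transcript.

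The stretch just upstream of the FAM126A start site is shown because this gene had the one large difference in the set, and that of TTC7B because its level in DMSO overlapped that of FAM126A while its own level in SF1-8 remained near its level in DMSO. Both are RefSeq promoter sequences of build GRCh38.p14, 250 bases long, from the minus strand, at chr7:23014131-23014380 for FAM126A (now HYCC1) and chr14:90816431-90816680 for TTC7B. Each RefSeq start site, base 23014130 and base 90816430, is the 5′ end of the deposited entry. Capitals mark the CCAAT box (CCAAT, or ATTGG on the other strand) and the GC box (GGGCGG, or CCGCCC on the other strand), and no marked box overlaps another.
FAM126A: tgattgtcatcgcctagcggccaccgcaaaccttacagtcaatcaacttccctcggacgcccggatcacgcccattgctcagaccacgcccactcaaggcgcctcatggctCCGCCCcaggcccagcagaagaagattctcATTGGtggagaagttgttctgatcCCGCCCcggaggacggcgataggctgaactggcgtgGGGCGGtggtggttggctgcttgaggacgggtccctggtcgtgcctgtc
TTC7B: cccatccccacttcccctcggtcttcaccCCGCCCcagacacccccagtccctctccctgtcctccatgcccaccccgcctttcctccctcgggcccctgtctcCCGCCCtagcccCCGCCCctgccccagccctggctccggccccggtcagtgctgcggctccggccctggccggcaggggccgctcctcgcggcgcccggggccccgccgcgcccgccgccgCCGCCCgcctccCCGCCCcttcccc

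The FAM126A sequence holds 1 CCAAT box, 109 bases before the start, and 3 GC boxes, 139, 85 and 49 bases before it, with a GC content of 62.0%. That of TTC7B holds 5 GC boxes and no CCAAT box, with a GC content of 80.4%. Neither holds TATAAA, TGACGTCA or CACGTG on either strand. Of 35116 RefSeq promoters cut to the same length, 32.0% hold a CCAAT box, 42.6% hold a GC box and 13.9% hold 3 or more GC boxes, so neither feature is rare. TATAAA is in 10.7% of them, TGACGTCA in 1.65% and CACGTG in 6.34%, and the median GC content is 58.0%. These matches describe letters in the sequence and show no binding. Promoters were matched for 7 of the 10 genes.

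In the treated cells FAM126A was about 3 times as abundant as in the controls, while none of the other genes of the set that could be tested passed the test. FAM126A stood at 2.19 and 1.85 FPKM in DMSO 1 and 2 and at 5.51 and 6.07 FPKM in SF1-8 1 and 2. Both treated libraries were thus well above both controls, and the groups did not overlap. Group means were 2.02 ± 0.247 FPKM in DMSO and 5.79 ± 0.398 FPKM in SF1-8 (SD, n = 2 each), with a log2 fold change of 1.55 (SE 0.104), a 2.93-fold difference. Behind these values stand estimated counts of 1840 and 2167 in DMSO and of 6682 and 7110 in SF1-8. Because the gene was chosen for this rise, its values are given as a description with no test. In RNA from a whole culture, more RNA per cell and more cells with the transcript cannot be told apart.

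**Figure D1:**
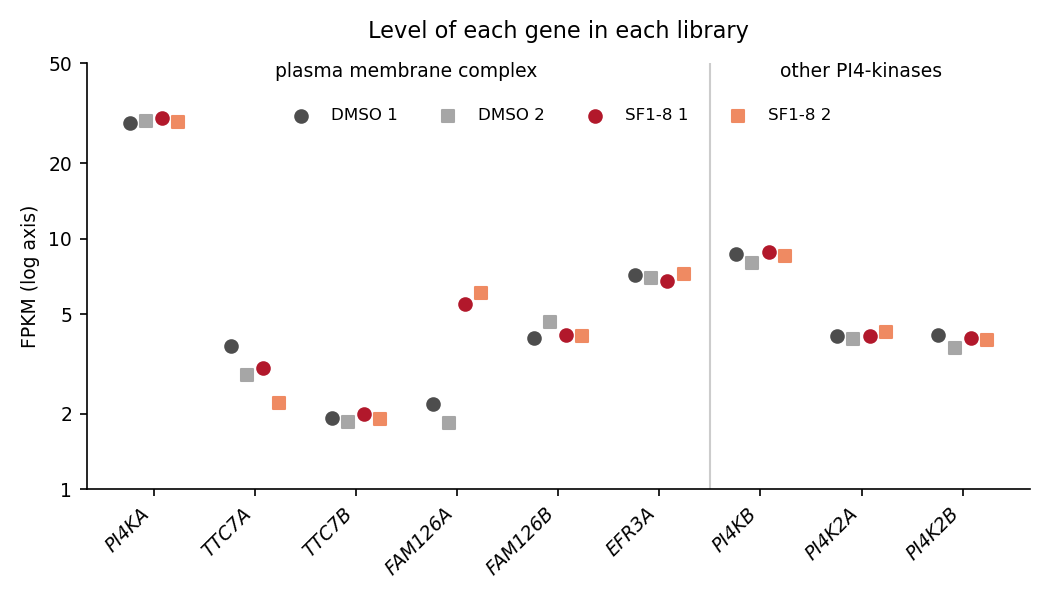
FPKM (log axis) of each gene in each of the 4 libraries, 1 point per library, with the genes of the plasma membrane complex to the left of the line and the other PI4-kinases to the right. FAM126A is the gene whose SF1-8 points (5.51 and 6.07) stand far above its DMSO points (2.19 and 1.85), and EFR3B, at 0.00612 FPKM or less, lies below the axis and is not drawn.

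The FAM126A entry runs along chr7:22889371-23014130 on the minus strand of GRCh38, the same span as in GENCODE 29, where 0 other genes overlap it. The annotation lists 9 transcripts for it, 4 of them coding, with proteins of 114, 419, 471 and 521 residues. The deposited value is 1 number per entry, so it does not show which of these was higher. The table holds 0 smaller entries inside FAM126A.

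Stromal genes, which K562 should lack, were lower in the treated libraries. The 7 stromal markers summed to 9.93 and 4.72 FPKM in DMSO and to 2.46 and 0.594 FPKM in SF1-8, and 6 of the 7, COL1A1 among them, were lower in both treated libraries than in either control, as were 20.01% of all tested entries. Among the K562 markers 3 of 7 entries were lower in the same sense, the globin entry, KLF1 and GATA1, the last by 76.02 against 75.93 FPKM at the nearest. COL1A1, a fibrillar collagen, was at 5.39 and 2.60 FPKM in DMSO and at 1.21 and 0.0982 FPKM in SF1-8. The part of these markers in the FAM126A values was not tested.

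Of the 9 other genes, 8 passed the filter on low counts. In the quasi-likelihood F-test of edgeR, with p-values adjusted by Benjamini-Hochberg over 26167 entries, 0 of these 8 had an adjusted p under 0.05, against 11 of all entries (0.0420%). At an unadjusted p under 0.05 the count was again 0 of 8, against 1132 of all entries (4.33%), and DESeq2 and limma also called 0 of the 8. The groups did not overlap in FPKM for 1 of the 8, against 34.2% of all entries. Log2 fold changes were above 0 for 6 and below 0 for 2, with a median of 0.057 beside -0.011 over all entries tested. That tally depends on the scale, since with library totals alone EFR3A was at -0.025 and PI4KA at 0.0074. Leaving TTC7A aside, the remaining 7 genes had log2 fold changes of at most 0.084 in size, and their 95% intervals lay between 0.784-fold and 1.23-fold.

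**Figure D2:**
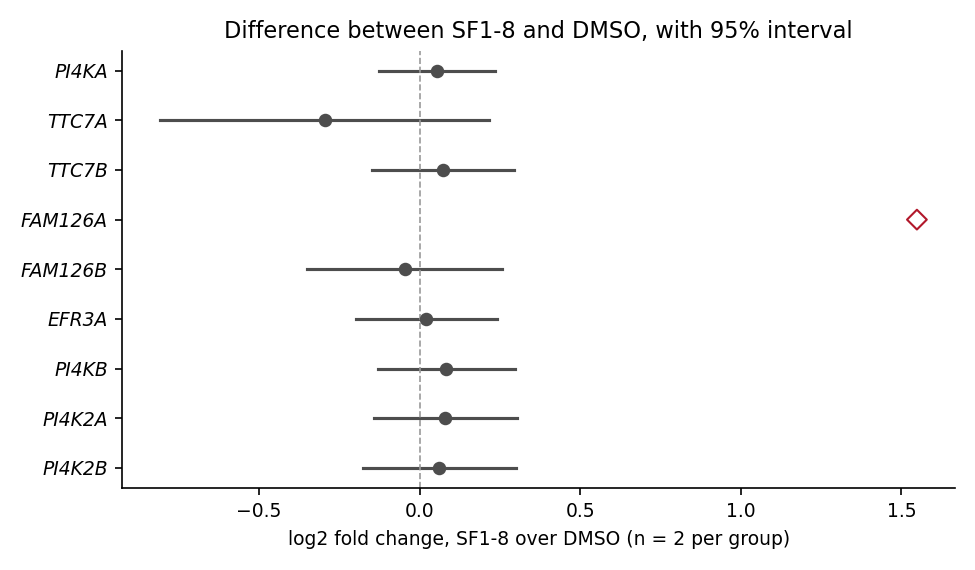
Log2 fold change of SF1-8 over DMSO for the 9 genes that passed the filter, from n = 2 libraries per group, with bars for the 95% interval of the edgeR fit. The intervals of all 8 filled points span 0, and FAM126A is an open diamond at 1.55 without an interval because it was chosen for its rise.

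PI4KA, the catalytic subunit of the complex and the most abundant gene of the set, is on chr22:20707691-20859417, minus strand. It was at 28.83 and 29.47 FPKM in DMSO and at 30.35 and 29.04 FPKM in SF1-8. The 4 values lie within a narrow band and the groups overlap. The log2 fold change was 0.053 (SE 0.0711, adjusted p = 0.970, edgeR F-test, Benjamini-Hochberg), with a 95% interval from 0.915-fold to 1.18-fold. PI4KA has near-copies on the same chromosome, so reads could be split between them. PI4KAP1 was at 4.38 and 4.12 FPKM in DMSO and 4.21 and 5.70 FPKM in SF1-8, and PI4KAP2 was at 8.98 and 10.4 FPKM in DMSO and 8.56 and 9.74 FPKM in SF1-8. Both pseudogenes overlapped between the groups.

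The scaffold genes TTC7A and TTC7B differed in how much they varied between libraries. TTC7A, on chr2:46916157-47076137, was at 3.73 and 2.86 FPKM in DMSO and at 3.04 and 2.21 FPKM in SF1-8. The highest value is a control and the lowest a treated library, but SF1-8 1 lies above DMSO 2, so the groups overlap. Its log2 fold change of -0.30 (SE 0.201) was the furthest from 0 among the 8 tested genes and did not pass the test (adjusted p = 0.970, edgeR F-test, Benjamini-Hochberg), with a 95% interval from 0.571-fold to 1.16-fold. Its value depended on single libraries: the log2 fold change was -0.073 without SF1-8 2, -0.14 without DMSO 1 and -0.55 without SF1-8 1. The last was the 1 setting of 14 with an unadjusted p under 0.05, and its adjusted p stayed at 0.660 or above in all 14. TTC7B, on chr14:90524564-90816430, was at 1.925 and 1.863 FPKM in DMSO and at 2.006 and 1.904 FPKM in SF1-8. Its 4 libraries were close to each other, with a log2 fold change of 0.074 (SE 0.0870) and a 95% interval from 0.902-fold to 1.23-fold.

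The paralog of FAM126A, FAM126B, which can take its place in the complex, was at 4.01 and 4.65 FPKM in DMSO and at 4.14 and 4.11 FPKM in SF1-8. Both treated values fall between the controls. The log2 fold change was -0.047 (SE 0.119, adjusted p = 0.983, edgeR F-test, Benjamini-Hochberg), with a 95% interval from 0.784-fold to 1.20-fold. The entry lies on chr2:200973718-201071671, minus strand, and 4 genes overlap it on the other strand, NDUFB3 of mitochondrial complex I among them. Protein-coding genes also overlap PI4KA (SERPIND1 and SNAP29), TTC7A (3, MCFD2 and STPG4 among them), PI4KB (ZNF687), the entry with PI4K2A (HOGA1, AL355315, C10orf62 and MORN4, of which MORN4 is on the other strand) and the entry with PI4K2B (1, on the same strand). Whether the counting used strand is not given in the sources used here, so reads of such partners cannot be told apart.

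FPKM is per length, so the paralogs were set side by side within a library, but the shares depend on the length assigned to each entry. FAM126A made up 35.4% and 28.4% of the summed FPKM of FAM126A and FAM126B in DMSO and 57.1% and 59.6% in SF1-8. FAM126B was thus the more abundant of the pair in both controls and FAM126A in both treated libraries. The sum of the pair was 6.205 and 6.495 FPKM in DMSO and 9.65 and 10.18 FPKM in SF1-8. Set against PI4KA, that sum was 0.215 and 0.220 of the PI4KA level in DMSO and 0.318 and 0.351 of it in SF1-8. These shares follow from the FAM126A values that chose the gene and add no separate evidence.

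In the scaffold pair, TTC7B made up 34.1% and 39.4% of the sum in DMSO and 39.7% and 46.3% in SF1-8. Its estimated counts were nonetheless above those of TTC7A in every library, at 2370 against 1552 in DMSO 1. The smaller FPKM share of TTC7B thus rests on the lengths by which counts are divided. The SF1-8 shares were above both DMSO shares, by 0.316 percentage points at the nearest, and the spread followed TTC7A, since TTC7B varied little. For the type II kinases, the entry with PI4K2B made up 50.2% and 48.1% in DMSO and 49.6% and 48.1% in SF1-8, so the entries were near equal. Both entries also name other genes, so these shares are of the entries and not of the kinases alone.

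**Figure D3:**
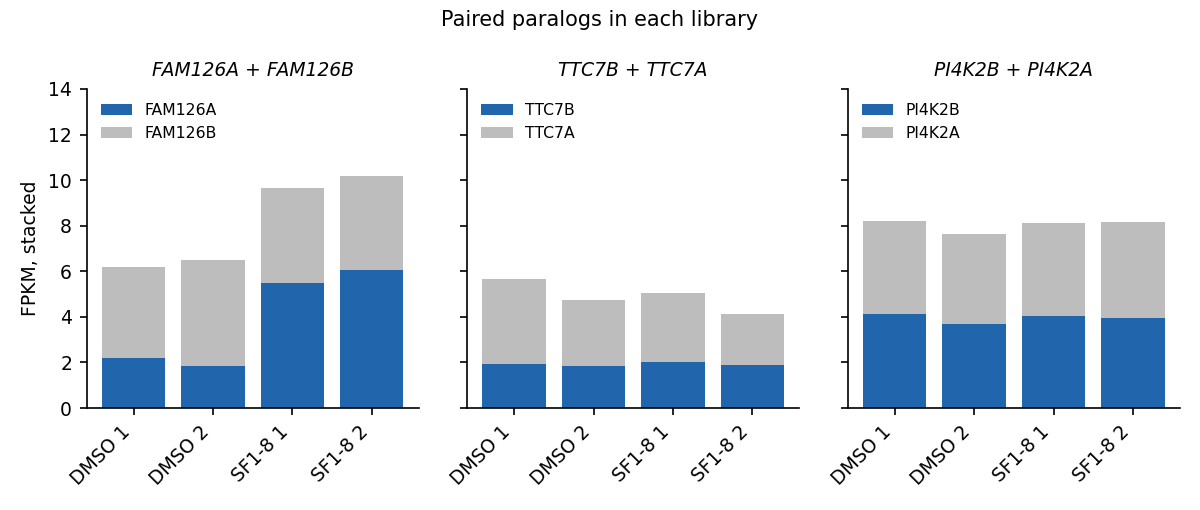
FPKM of paralogous genes stacked in each library, for FAM126A with FAM126B, TTC7B with TTC7A and PI4K2B with PI4K2A. The blue part of the first panel grows from 28.4% to 35.4% of the bar in DMSO to 57.1% to 59.6% in SF1-8. The part of the entry with PI4K2B stays between 48.1% and 50.2%.

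Of the membrane anchors, EFR3A was the one found at a level well above 0. EFR3A, on chr8:131904093-132013642, was at 7.13 and 6.94 FPKM in DMSO and at 6.77 and 7.25 FPKM in SF1-8. The treated libraries were the lowest and the highest of the 4. Its log2 fold change was 0.021 (SE 0.0867, adjusted p = 0.991, edgeR F-test, Benjamini-Hochberg), with a 95% interval from 0.871-fold to 1.18-fold, and its sign turned in 5 of the 14 alternative settings. EFR3B, on chr2:25042076-25159135, had counts of 4 and 0 in DMSO and 4 and 4 in SF1-8, which is 0.00612 FPKM at the most and is listed at 0 in DMSO 2. It did not pass the filter on low counts and was not tested, and 4 is also the commonest count above 0 in every library. EFR3B was at most 0.0856% of the summed FPKM of the pair in any library.

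The kinases outside the complex were PI4KB, which makes PI4P at the Golgi, and the type II enzymes PI4K2A and PI4K2B, which sit on Golgi and endosomal membranes. PI4KB, on chr1:151291797-151327715, was at 8.68 and 7.99 FPKM in DMSO and at 8.82 and 8.50 FPKM in SF1-8, with a log2 fold change of 0.084 (SE 0.0835). The treated library SF1-8 2 lay below the control DMSO 1, so the groups overlap. The entry with PI4K2A, on chr10:97584323-97676434, was at 4.08 and 3.96 FPKM in DMSO and at 4.10 and 4.25 FPKM in SF1-8, with a log2 fold change of 0.080 (SE 0.0875). This was the 1 gene of the 8 whose groups did not overlap, and the nearest libraries of the groups differed by 0.0157 FPKM. The entry with PI4K2B, on chr4:25160641-25279204, was at 4.11 and 3.68 FPKM in DMSO and at 4.03 and 3.93 FPKM in SF1-8, with a log2 fold change of 0.061 (SE 0.0933). Both treated values lie between the controls. None of the 3 passed the test (adjusted p = 0.970 for each, edgeR F-test, Benjamini-Hochberg), and their 95% intervals had upper ends at 1.23-fold.

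Across the 4 kinases the summed FPKM was 45.7 and 45.1 in DMSO and 47.3 and 45.7 in SF1-8. PI4KA made up 63.1% and 65.4% of it in DMSO and 64.2% and 63.5% in SF1-8. PI4KB made up 17.7% to 19.0%, and the entry of each type II enzyme between 8.15% and 9.29%, over the 4 libraries. For PI4KA, PI4KB and PI4K2B both SF1-8 shares lay between those of the control libraries, while PI4K2A, at 8.94% and 8.79% in DMSO and 8.67% and 9.29% in SF1-8, lay on either side of them.

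In order of mean FPKM in DMSO, PI4KA came first, then PI4KB, EFR3A, FAM126B, PI4K2A, PI4K2B, TTC7A, FAM126A, TTC7B and EFR3B. Like the shares, this order depends on the length assigned to each entry. In that order the neighbors FAM126B and PI4K2A, PI4K2A and PI4K2B, PI4K2B and TTC7A, and FAM126A and TTC7B overlapped in their libraries. In SF1-8 FAM126A took rank 4 in place of rank 8, between EFR3A and PI4K2A, with no overlap with either. There, PI4K2A and FAM126B were the only neighbors that overlapped.

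The table also holds 16 smaller entries named for a gene of the set, all inside the main entry of that gene, 7 for FAM126B, 6 for TTC7B and 3 for PI4KA. Of these 15 passed the filter, and 0 had a p under 0.05 in the edgeR fit, adjusted or not, beside 4.33% (unadjusted) and 0.0420% (adjusted) of all entries. Log2 fold changes ran from -1.68 to 0.41, with 11 of the 15 below 0. DMSO 1 was the highest library for 13 of the 16 and for 7 of the 7 inside FAM126B, whereas the main FAM126B entry was lowest in DMSO 1. These entries are pieces inside the genes, from 253 to 12991 bases long and mostly without an assigned strand. The 3 inside PI4KA lie on the strand opposite to that gene.

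The named entries within 500000 bases of FAM126A were read from the same fit. FAM126A was picked for its rise and its neighbors were not, so they are described on their own and not set against it. There were 48, of which 39 passed the filter, 14 with a log2 fold change above 0 and 25 below. Their median was -0.12, beside -0.011 over all tested entries. Many of those below 0 are small entries named for STEAP1B, without a strand, inside a larger entry that names STEAP1B and IL6-AS1. The tested ones of these were all below 0 but for a value of 0.22, so the tally is not of separate genes. None had an adjusted p under 0.05 (smallest 0.970, edgeR F-test, Benjamini-Hochberg), and 1 of the 39, a small entry named for STEAP1B, had an unadjusted p under 0.05, beside 4.33% of all entries. That entry was lower, at 1.16 and 1.37 FPKM in DMSO and 0.504 and 0.475 FPKM in SF1-8, with a log2 fold change of -1.34 (SE 0.337).

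On the side past the 3′ end of FAM126A, an entry named AC005682 lay 8021 bases away and was at 0.151 and 0.158 FPKM in DMSO and 0.222 and 0.232 FPKM in SF1-8, a log2 fold change of 0.59 (SE 0.614). SNHG26, a host of small nucleolar RNA, lay 16426 bases away and was at 1.78 and 0.989 FPKM in DMSO and 1.73 and 1.65 FPKM in SF1-8. TOMM7, a subunit of the mitochondrial import channel, lay 66519 bases away and was at 27.2 and 32.1 FPKM in DMSO and 26.6 and 27.0 FPKM in SF1-8, a log2 fold change of -0.12 (SE 0.127). Of these 3, AC005682 was higher in both treated libraries, at no more than 0.232 FPKM.

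On the side of the FAM126A promoter, KLHL7-DT, a divergent transcript of KLHL7, was the nearest tested entry, 86084 bases away, at 0.759 and 0.846 FPKM in DMSO and 0.940 and 0.930 FPKM in SF1-8. It was higher in both treated libraries, with a log2 fold change of 0.24 (SE 0.204) that did not pass the test. KLHL7, a substrate adaptor of a ubiquitin ligase, lay 91628 bases away and was at 1.73 and 2.06 FPKM in DMSO and 2.03 and 1.73 FPKM in SF1-8, a log2 fold change of 0.010 (SE 0.172). Further along, the log2 fold change was 0.13 for NUP42, 0.17 for MALSU1, -0.060 for IGF2BP3 and -0.017 for TRA2A. The 6 neighbors with a mean above 5 FPKM, which include TOMM7 and the pseudogene EEF1A1P6 (-0.12), lay between -0.12 and 0.17.

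**Figure D4:**
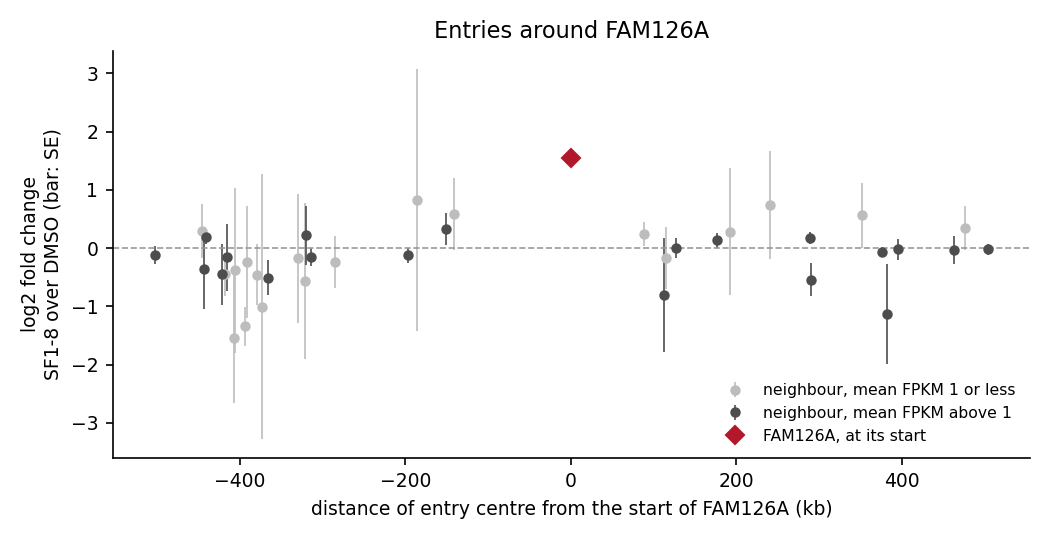
Log2 fold change of SF1-8 over DMSO, with bars for the SE, of the 39 tested entries within 500000 bases of FAM126A, by the distance of their centre from the FAM126A start in kb. Entries with a mean FPKM above 1 are dark, those at 1 or less are light with wide bars, and the neighbors run from -1.54 to 0.82. FAM126A, picked for its rise, is the diamond at 1.55 and marks the position only.

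The wider phosphoinositide pathway was read from 5 lists of 75 symbols, which matched 70 genes, since some symbols are older names of the same gene. All 70 passed the filter, and 0 had an adjusted p under 0.05 (smallest 0.970, edgeR F-test, Benjamini-Hochberg). At an unadjusted p under 0.05 there were 2 of 70, both higher, beside 4.33% of all entries. That count was 0 to 3 in the other settings with all libraries and 1 to 4 with a library left out, and the genes differed: PIP5KL1 passed in 4 of the settings with all libraries and in 1 with a library left out, but not with DESeq2 or the replicate block, GGA3 passed with both of these but not with other scalings, and neither passed with limma. Without DMSO 1 they were, with their log2 fold changes, CDIPT (0.69), PIP4K2A (0.23), PIP4K2C (1.12) and OSBPL2 (-0.46). Without DMSO 2 they were PIP5KL1 (1.44), INPP5B (0.39), MTM1 (-0.72) and OSBPL9 (0.39). Without SF1-8 1 it was PLEKHA8 (-0.83). Without SF1-8 2 they were GGA3 (0.41), TMEM150A (-0.85), YWHAB (1.73) and HSP90AA1 (-0.62). Of the 70, 45 had a log2 fold change above 0 and 25 below, with a median of 0.058 and a range from -0.82 to 1.13. The median over all tested entries was -0.011. In 7 cases the entry also names other genes.

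Phosphatidylinositol synthesis and transfer genes supply the substrate. Of 10 tested, 7 had a log2 fold change above 0 and 3 below, 0 with an unadjusted p under 0.05. The most abundant, PITPNA, a transfer protein that carries phosphatidylinositol between membranes, was at 10.7 and 10.6 FPKM in DMSO and 11.3 and 10.6 FPKM in SF1-8. CDIPT, the phosphatidylinositol synthase, was at 7.93 and 4.87 FPKM in DMSO and 7.93 and 7.97 FPKM in SF1-8, so that DMSO 2 stood apart. Its log2 fold change was 0.35 (SE 0.217), and 0.69 without DMSO 1, where its unadjusted p was under 0.05. The adjusted p of CDIPT was 0.553 or above in all 14 alternative settings.

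Kinases that act on PI4P or other phosphoinositides had a log2 fold change above 0 in 9 of 11 cases. Among all tested entries, 34.2% had groups that did not overlap and 4.33% had an unadjusted p under 0.05 in the edgeR fit. The groups overlapped for all genes of the list except the 1 with an unadjusted p under 0.05 in that fit. This was PIP5KL1, a relative of the kinases that turn PI4P into PI(4,5)P2, at 0.0979 and 0.130 FPKM in DMSO and 0.240 and 0.265 FPKM in SF1-8. Its groups did not overlap, at a low level, with a log2 fold change of 1.13 (SE 0.415, adjusted p = 0.970, edgeR F-test, Benjamini-Hochberg). The most abundant of the list, PIP4K2A, was at 31.6 and 25.8 FPKM in DMSO and 30.4 and 30.8 FPKM in SF1-8.

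Phosphoinositide phosphatases had a log2 fold change above 0 in 10 and below 0 in 6 of 16 cases, 0 with an unadjusted p under 0.05. Both treated libraries were above both controls for INPP5B and MTMR2. They were below both controls for INPP5E, INPP5J, FIG4, MTM1 and PIP4P1. Over all tested entries the groups did not overlap for 34.2%. SACM1L, which removes the phosphate of PI4P, was at 12.6 and 11.4 FPKM in DMSO and 12.1 and 12.7 FPKM in SF1-8. INPPL1, the most abundant of the list, was at 13.2 and 12.8 FPKM in DMSO and 13.1 and 13.7 FPKM in SF1-8. The groups overlapped for SACM1L and for INPPL1.

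Genes of lipid transfer and coat proteins that bind PI4P had an edgeR log2 fold change above 0 in 11 and below 0 in 8 of 19 cases. The median was 0.012, and the tally depends on the scale. OSBPL3, OSBPL8 and GOLPH3L were above 0 in the fit, but their ratios of mean FPKM were 0.987, 0.988 and 0.9997. In this list 1 gene had an unadjusted p under 0.05 in the edgeR fit. This was GGA3, a Golgi clathrin adaptor, at 5.98 and 5.24 FPKM in DMSO and 7.26 and 6.29 FPKM in SF1-8, with a log2 fold change of 0.30 (SE 0.113, adjusted p = 0.970, edgeR F-test, Benjamini-Hochberg). Its groups did not overlap, but the nearest libraries differed by less than those within DMSO. Both treated libraries were also above both controls for OSBPL11, PLEKHA3 and GOLPH3. They were below both controls for OSBP2, OSBPL2, OSBPL5, OSBPL7 and the paralog GGA1. Groups that did not overlap made up 34.2% of all tested entries. GOLPH3, a Golgi protein that binds PI4P and the most abundant of the list, was at 34.8 and 34.3 FPKM in DMSO and 36.1 and 36.1 FPKM in SF1-8. OSBP, which trades cholesterol for PI4P between membranes, was at 23.8 and 22.3 FPKM in DMSO and 23.6 and 24.2 FPKM in SF1-8.

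Partners that place or regulate PI4-kinases had a log2 fold change above 0 in 8 and below 0 in 6 of 14 cases, 0 with an unadjusted p under 0.05. TMEM150A, a membrane protein that binds the PI4KA complex, was at 4.15 and 4.23 FPKM in DMSO and 2.26 and 3.72 FPKM in SF1-8. Both treated libraries were below both controls but far from each other, with a log2 fold change of -0.46. Without SF1-8 2 it was -0.85, with an unadjusted p under 0.05 and an adjusted p of 0.697 in the edgeR fit, the lowest of the 14 alternatives. ACBD3, which recruits PI4KB to the Golgi, was at 16.5 and 15.3 FPKM in DMSO and 16.5 and 17.6 FPKM in SF1-8. The most abundant, the chaperone HSP90AA1, was at 263.3 and 241.1 FPKM in DMSO and 159.2 and 262.0 FPKM in SF1-8, so that SF1-8 1 stood apart. Its log2 fold change was -0.23 (SE 0.226), and -0.62 without SF1-8 2, where its unadjusted p was under 0.05. YWHAB, a 14-3-3 protein of the family that binds phosphorylated PI4KB, was at 10.4 and 9.01 FPKM in DMSO and 31.3 and 9.75 FPKM in SF1-8. Its high value rests on SF1-8 1 alone, and with SF1-8 2 left out it was the 1 gene of the lists with an adjusted p under 0.05 (log2 fold change 1.73 in the edgeR fit), its adjusted p running from 0.0155 there to 0.9999 over the 14 alternatives.

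**Figure D5:**
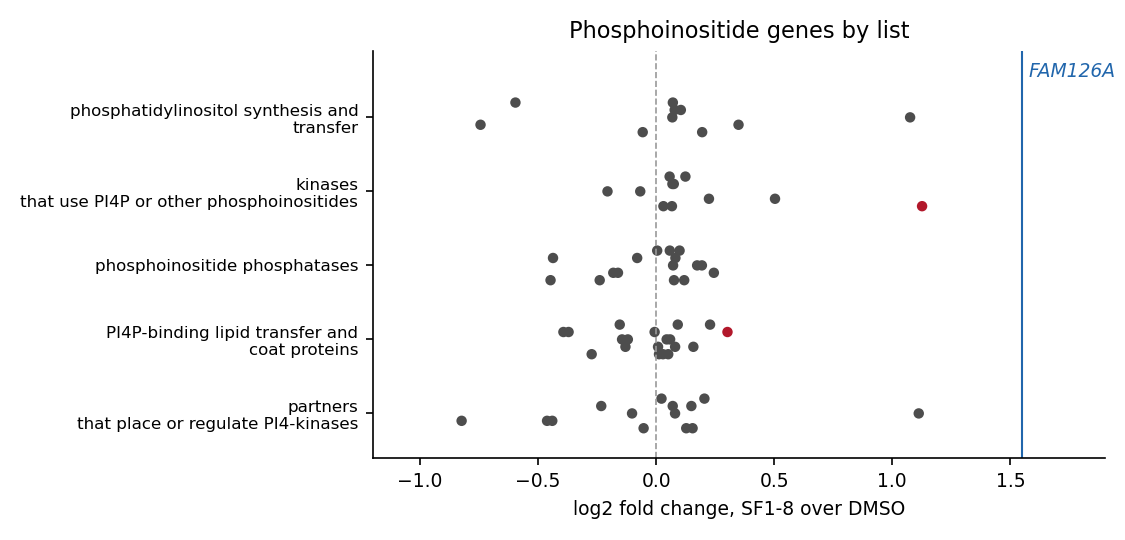
Log2 fold change of SF1-8 over DMSO of the 70 tested genes of the phosphoinositide lists, 1 point per gene and 1 row per list, points spread vertically for legibility. The 2 red points, PIP5KL1 at 1.13 and GGA3 at 0.30, have an unadjusted p under 0.05 in the edgeR fit. The line marks FAM126A, picked for its rise, at 1.55.

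The entries whose pattern over the 4 libraries was most like that of FAM126A were sought by the Euclidean distance of log2 CPM centred on the mean of each entry, among 24164 single-gene entries with a median distance of 1.66. FAM126A itself was at 5.28 and 5.11 log2 CPM in DMSO and 6.67 and 6.80 log2 CPM in SF1-8. The nearest were AL355334 at a distance of 0.0568, AC133530 at 0.117, LINC02043 at 0.125, UBBP4 at 0.132 and DZANK1 at 0.133. Of these UBBP4, a ubiquitin pseudogene, was the most abundant, at 0.676 and 0.584 FPKM in DMSO and 1.77 and 1.74 FPKM in SF1-8. AL355334 was at 0.246 and 0.211 FPKM in DMSO and 0.656 and 0.757 FPKM in SF1-8. DZANK1 stayed at or below 0.0791 FPKM in every library. With 4 libraries in 2 groups such a likeness says little more than that the fold is similar.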

How the data were processed

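Total RNA of 4 samples of K562 cells was depleted of ribosomal RNA and sequenced from TruSeq total RNA libraries. The submitters' processing notes name cutadapt, FastQC, Bowtie2, HISAT2, StringTie and hg38, and versions, annotation and test are not given in the sources used here. The authors deposited FPKM values, scaled by length and depth, for each library, in which 1e-04 stands for 0. The authors also deposited, per entry and without normalization, whole numbers that were taken as an estimated count, whose commonest value above 0 is 4. Such a number need not be 1 read, so no exact counting interval was given. The SEs, intervals and p-values are those of the edgeR model, which joins count noise to a dispersion estimated over entries, and can be wider than the spread between the libraries of a gene. Total counts were 45522905 and 64387710 in DMSO and 67554610 and 64305922 in SF1-8.

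The 2095 of 64873 entries without a gene name, 0.358% to 0.421% of the counts, were left out. The rest were fitted with edgeR 4.0.16 in R 4.3.3 (quasi-likelihood test, TMM factors, filterByExpr, treatment as the only term), which left 26167 entries, with Benjamini-Hochberg adjustment over them and a threshold of 0.05. The script was tested on simulated data. Alternatives were DESeq2 1.42.0 (on all named entries with a count and, added after seeing the data, on the 26167), limma 3.58.1 on log2(FPKM + 1) or log2(FPKM + 0.1) for entries above 0.1 FPKM in 2 libraries, other scalings, no filter, counts divided by 4, a replicate block and each library left out. The genes of the set and the lists were chosen with earlier results of these data known. The genes named in the text are the 10 of the set, listed genes with an unadjusted p under 0.05, the most abundant of each list, neighbors of FAM126A, and the 5 entries nearest in pattern. CDIPT, SACM1L, OSBP, TMEM150A, ACBD3, YWHAB, PIP4K2C and OSBPL2 were added after their values were seen. So were OSBPL3, OSBPL8, OSBPL9, GOLPH3L, PLEKHA8, INPP5B, INPP5E, INPP5J, FIG4, MTM1, MTMR2 and PIP4P1. The same holds for OSBP2, OSBPL5, OSBPL7, OSBPL11, PLEKHA3 and GGA1. Gene overlaps are from GENCODE 29 and promoter sequences from RefSeq, GRCh38.p14, where the 7 matched genes are PI4KA, TTC7A, TTC7B, FAM126A, EFR3B, PI4KB and PI4K2B.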

Additional observations from a re-analysis of the deposited data

How the results depend on the processing

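Over the 14 alternative settings, 0 of the 8 tested genes other than FAM126A were called, and TTC7A stayed below 0 in all 14. The log2 fold change of FAM126A moved to 1.17 with limma on log2(FPKM + 1), with and without the filter, a scale on which low values are compressed, and otherwise lay within 1.47 to 1.64, leaving out a library included. The sign of EFR3A turned to -0.025 with library totals, to -0.0060 with limma on log2(FPKM + 1) with and without the filter, to -0.0069 with limma on log2(FPKM + 0.1), and its range was -0.019 to 0.068 with a library left out. That of PI4KA ranged from -0.0017, without DMSO 1, to 0.12, and that of FAM126B from -0.19 to 0.11, the latter without DMSO 2. The cause was not tested.

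The count of called entries was 11 in the edgeR fit, 31 without a filter, 150 with DESeq2 on unfiltered entries with its own filter, 163 with DESeq2 on the same 26167 entries as edgeR (added after seeing the data), 0 in each of the 3 limma fits and 0 to 30 with a library left out (0 without DMSO 1, 21 without DMSO 2, 30 without SF1-8 1 and 28 without SF1-8 2). With the replicate block it was 0, and the log2 fold change of FAM126A was 1.55. The labels give no pairing. Deviations from the group means in DMSO 1 and SF1-8 1 correlated at 0.0165 over 26167 entries, many of them with low counts. Such a value cannot show whether same-numbered libraries share a culture or batch, and this was not tested. Called genes of the lists were 0 to 1 with a library left out and 0 in the other settings. A fit with a lone library assumes that it varies like the other group. With 2 libraries a group, differences as small as those of the kinases could not be told from the spread.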
